A study of Mus musculus with 3 samples.

Results

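A rare population of amacrine cells was picked out of droplet single-cell libraries of the mouse retina at postnatal day 6 by the glycine transporter gene *Slc6a9*, the usual sign of glycinergic amacrine cells. Of 29084 cells kept from 3 libraries, 189 met the rule, 56 in the wild-type (WT) library, 98 in the *Tspan12* knockout (*Tspan12* KO) library and 35 in the library with a conditional *Ctnnb1* knockout (*Ctnnb1* cKO). A member had at least 2 UMIs (unique molecular identifiers, 1 for each captured transcript) of *Tfap2a*, *Tfap2b* and *Pax6* together, at least 2 *Slc6a9* UMIs per 10000, more *Slc6a9* than *Gad1* and *Gad2* UMIs, and no UMI of the horizontal cell gene *Lhx1*. Cells with many UMIs of endothelial, microglial or cell cycle genes were left out. They are called *Slc6a9*+ cells here, because the data bore out the glycinergic label only in part, as described below.

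The 3 libraries differed in genotype, and each came from 1 pool of C57BL/6 mice of both sexes whose retinal cells had been enriched with magnetic beads for CD31 (vessels) and CD11b (microglia), so neurons were carried along rather than sampled evenly. *Tspan12* KO mice lacked the Norrin co-receptor gene in all cells. *Ctnnb1* cKO mice carried floxed alleles and *Pdgfb*-iCreER, which deletes beta-catenin in endothelial cells after the tamoxifen given to the pups, so their amacrine cells were not targeted directly. WT pups came from litters separate from those of either knockout, and with 1 library per genotype the genotype, the pool and the run cannot be told apart.

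Amacrine cells are the inhibitory interneurons of the inner retina, and they release either GABA or glycine. Glycinergic cells are mostly small-field neurons, such as the AII cell of the rod pathway, that carry signals between the layers of the inner plexiform layer. They take up glycine through GlyT1, the product of *Slc6a9*, and load it into vesicles with the transporter VIAAT, the product of *Slc32a1*, whereas GABAergic cells make their transmitter with the enzymes encoded by *Gad1* and *Gad2*.

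The *Slc6a9*+ cells made up 0.597% of the kept WT cells (exact 95% interval 0.451 to 0.775%), 0.846% of *Tspan12* KO cells (0.687 to 1.03%) and 0.431% of *Ctnnb1* cKO cells (0.300 to 0.599%). These intervals cover counting error only. GABAergic cells, chosen by the mirrored rule with *Gad1* and *Gad2* above *Slc6a9*, numbered 392, 333 and 43 in the same order. The *Slc6a9*+ cells of the *Ctnnb1* cKO library were thus close in number to its GABAergic cells, while in the other libraries they were far fewer. Their median depth over these libraries was 4878, 4728 and 4013 UMIs, against 6949, 6297 and 3184 for GABAergic cells. No member's barcode was found among the kept cells of another library.

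The transporter that defined the members was scarce, and its detection in amacrine cells as a whole did not stand clear of background. In the members the median was 3.22 *Slc6a9* UMIs per 10000, and 74 of 189 were chosen on a single *Slc6a9* UMI. Just inside the threshold the lowest value was 2.002 per 10000 and just outside it the highest was 1.999, among 983 cells that had *Slc6a9* above *Gad1* and *Gad2* and met every other condition. After thinning every cell to 1000 UMIs, *Slc6a9* was found in 3.87% of amacrine-marked WT cells (at least 2 UMIs of *Tfap2a*, *Tfap2b* and *Pax6*, past the exclusions of the rule), and in 4.73% of WT cells with no UMI of these 3 genes. The shares were 4.98% and 4.79% in *Tspan12* KO and 6.01% and 1.54% in *Ctnnb1* cKO. Rods, which should lack the gene, showed it in 7.32% (3 of 41), 6.25% (7 of 112) and 6.67% (2 of 30) of cells. Without thinning the share in amacrine-marked cells was 28.1%, 48.9% and 31.4% by library, at median depths of 7484, 12454 and 4653 UMIs, and in rods it was 12.2%, 11.6% and 16.7% at 2568, 1674 and 1975 UMIs. At equal depth the share in amacrine-marked cells was below that in rods in each library, but inside the rods' counting intervals. These were wide, at 1.54 to 19.9%, 2.55 to 12.5% and 0.818 to 22.1%. Beyond the counting intervals the amacrine-marked share was above that of cells lacking the 3 genes only in *Ctnnb1* cKO (3.80 to 8.96% against 1.26 to 1.87%).

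Genes that the rule did not use placed the WT and *Tspan12* KO members among amacrine cells. *Ebf3*, a transcription factor of several glycinergic types, stood at 668 CPM (UMIs per 1000000 UMIs of the class; 95% Poisson interval 583 to 762) in WT members. *Tspan12* KO members had 465 CPM (416 to 518) and those of *Ctnnb1* cKO 231 CPM (170 to 306). In the other kept cells of the same libraries it was at 45.7, 57.3 and 27.95 CPM, well under the members in each library. *Slc32a1* was at 60.2, 36.9 and 9.62 CPM in the members and at 3.63, 4.10 and 1.42 CPM in the other cells. The *Ctnnb1* cKO value for *Slc32a1* rested on 2 UMIs, and the interval of its log2 ratio to the other cells ran from -0.33 to 4.68. The amacrine factor gene *Barhl2* had 13, 20 and 1 UMIs in the members, the last again too few to tell. A UMI of *Tfap2a* or *Tfap2b*, the factors that mark nearly all amacrine cells, was present in 27 of 56, 38 of 98 and 7 of 35 members, against 288 of 392, 216 of 333 and 28 of 43 GABAergic cells. The other 117 members entered through *Pax6* alone, which progenitors, ganglion cells and Müller glia also express.

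**Figure D1:**
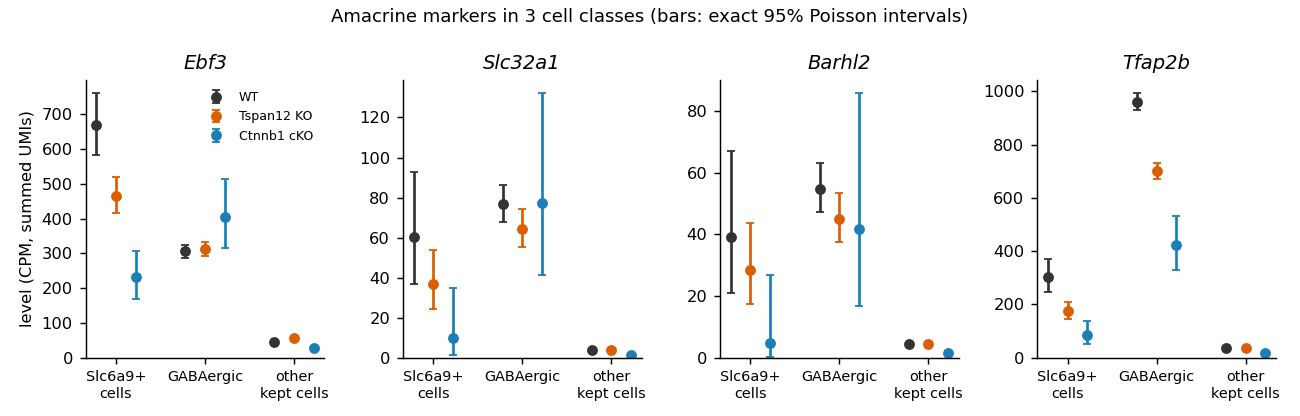
Level in CPM (vertical axis) of *Ebf3*, *Slc32a1*, *Barhl2* and *Tfap2b* in *Slc6a9*+ cells, GABAergic cells and all other kept cells, 1 point per library with its exact 95% Poisson interval. *Ebf3* in the members ran from 668 CPM in WT to 231 CPM in *Ctnnb1* cKO, while *Tfap2b*, a gene of the rule, was lower in the members than in GABAergic cells of each library.

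Transcripts of other retinal cells were also found in the members, and their share differed between libraries. The 10 genes of the rod list summed to 1306, 4650 and 3587 CPM in the members of WT, *Tspan12* KO and *Ctnnb1* cKO, with 9, 10 and 10 of the genes detected and only *Gnat1* at 0 in WT. At least 20 rod list UMIs per 10000 were found in 11 of 56, 44 of 98 and 17 of 35 members, against 46 of 392, 67 of 333 and 11 of 43 GABAergic cells. The Müller glia list summed to 725, 1078 and 2433 CPM in the members with 8, 9 and 9 of 10 genes detected, and 18 of 35 *Ctnnb1* cKO members had 20 or more of its UMIs per 10000, against 5 of 56 in WT and 10 of 98 in *Tspan12* KO. *Aqp4* and *Kcnj10*, late Müller genes, were at 0 in WT. Members with at least 5 UMIs of *Optc*, *Crhbp* and *Col9a1*, matrix and ciliary margin genes, numbered 0, 1 and 7. The *Ctnnb1* cKO members were thus the least uniform. Scrublet gave no usable doublet threshold, with 0, 0 and 335 calls. Doublets were therefore kept, and taking out the highest scores removed 4, 14 and 3 members. The part of free RNA, of doublets and of other cell types in these values was not tested.

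**Figure D2:**
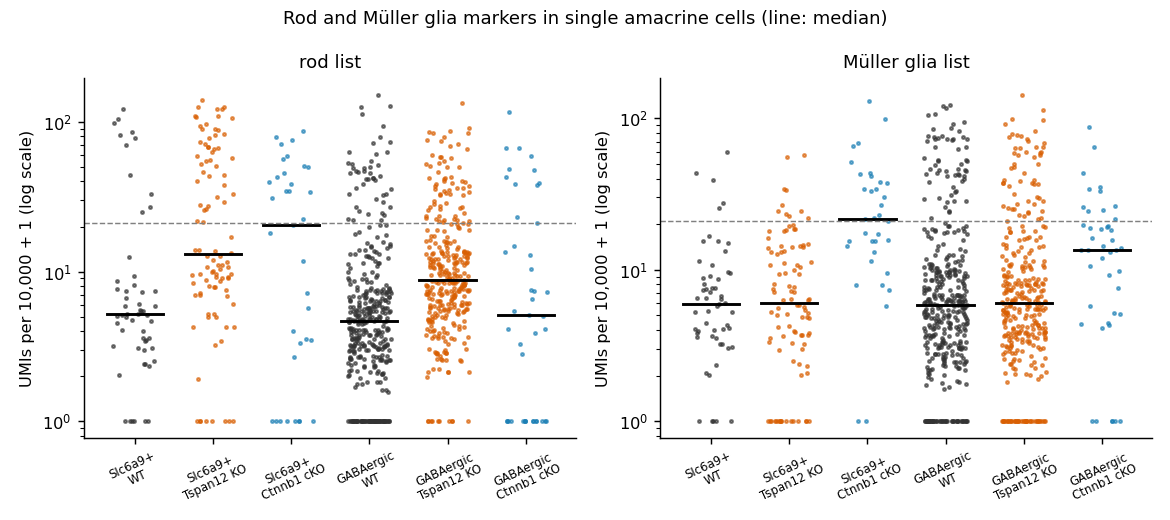
UMIs per 10000 plus 1 (log axis) of the rod list and the Müller glia list in each *Slc6a9*+ and GABAergic cell by library, with black bars at medians and a dashed line at 20 per 10000. The median rod list level of *Slc6a9*+ cells was 4.19, 12.1 and 19.6 from left to right.

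The members were first set against the GABAergic amacrine cells, to ask which genes differ between cells chosen by the mirrored rules. A *Gad1* or *Gad2* UMI was present in 13, 24 and 2 members of WT, *Tspan12* KO and *Ctnnb1* cKO. The contrast is therefore not a clean one between transmitter classes. UMIs were summed per class and library and tested with edgeR's quasi-likelihood test with the library as a block. Of 8065 genes tested, 27 (0.335%) were higher in *Slc6a9*+ cells and 111 (1.38%) were lower at an adjusted p under 0.05. Without the genes of the rule itself the counts were 26 and 107. The 3 libraries are 3 genotypes, so the test asked for differences shared across them, and p-values rest on the spread between 3 pairs.

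Of the higher genes, *Lamp5*, a lysosome-associated membrane protein gene of small interneurons, was at 217, 99.3 and 33.7 CPM in WT, *Tspan12* KO and *Ctnnb1* cKO members and at 41.2, 20.8 and 23.8 CPM in GABAergic cells (log2 fold change 2.23 ± 0.25 SE, edgeR adjusted p = 0.000635). The members were higher in each library, with the smallest gap in *Ctnnb1* cKO. *Kcnip4*, encoding a protein that binds Kv4 potassium channels, was at 1378, 962 and 313 CPM against 324, 334 and 47.6 CPM (1.95 ± 0.22, adjusted p = 0.000635). *Dab1*, the Reelin adaptor used to mark AII cells, was at 1357, 604 and 236 CPM against 282, 190 and 256 CPM (1.51 ± 0.33, adjusted p = 0.0479), so the *Ctnnb1* cKO library did not share the difference. *Cdh8*, a cadherin, had a log2 fold change of 1.84 ± 0.22, and *Egfem1* one of 1.85 ± 0.23. The GABA-A receptor subunit gene *Gabrb2* (1.87 ± 0.32, adjusted p = 0.0108) and *Sorcs3* (2.13 ± 0.30, adjusted p = 0.00345), a sorting receptor gene, were higher in WT and *Tspan12* KO and lower in *Ctnnb1* cKO, where each had 1 UMI in the members. In cells with a UMI of *Tfap2a* or *Tfap2b*, *Gabrb2* stood at -0.055. The remaining named genes were *Insc*, *Krt24*, *Lrfn5* and *Vwc2l*, with log2 fold changes from 1.81 to 2.23, of which *Vwc2l* was lower in *Ctnnb1* cKO. *Nrl*, the rod determination factor and the only rod list gene past the test, was higher as well (0.98 ± 0.20, adjusted p = 0.0334), beside the higher rod list share given above, and so was *Prcd*, a photoreceptor disc gene (1.71 ± 0.19).

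Among the lower genes, *Cartpt*, which encodes the CART peptide, had 0, 3 and 1 UMIs in the members and stood at 383, 301 and 946 CPM in GABAergic cells (edgeR adjusted p = 1.21e-05). *C1ql2*, a secreted C1q-like synapse organizer gene, had 0, 2 and 0 UMIs in the members and 144, 121 and 47.6 CPM in GABAergic cells. Both genes were lower in the members of each library. *Cntn5*, a contactin of the immunoglobulin family, was at 21.1, 11.3 and 0 CPM against 325, 455 and 125 CPM (-4.86 ± 0.35, adjusted p = 7.87e-05). The potassium channel partner gene *Kcnip1* (-4.15 ± 0.38), the transcription cofactor gene *Dach2* (-4.01 ± 0.38), *Ralyl* (-4.03 ± 0.54) and *Adarb2* (-4.79 ± 0.44), both of RNA binding protein families, followed. *Rd3l* (-4.88 ± 0.37) and *AI593442* (-5.39 ± 0.45) were also among the 10 largest.

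**Figure D3:**
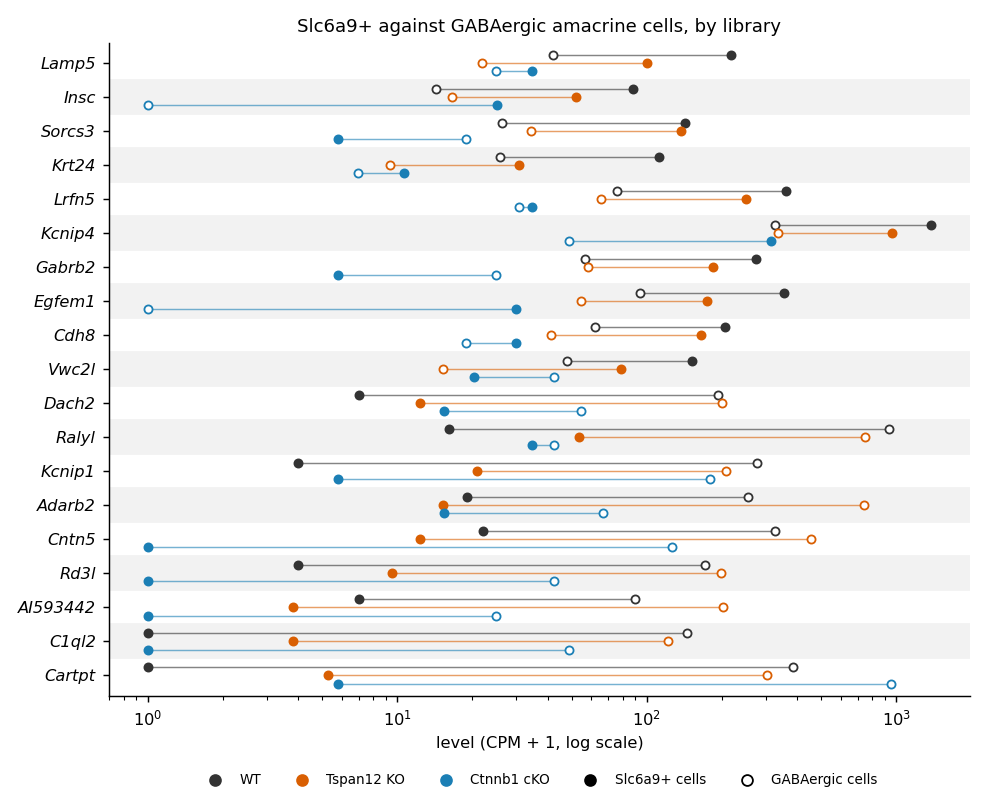
Level (CPM plus 1, log axis) of 19 of the 20 genes with the largest differences in *Slc6a9*+ cells (filled) and GABAergic cells (open), 1 line per library. The members had at most 4.81 CPM of *Cartpt* and *C1ql2* and GABAergic cells between 47.6 and 946 CPM, and the *Ctnnb1* cKO lines of *Gabrb2*, *Sorcs3* and *Vwc2l* run against the other libraries.

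By function, the transmitter pathway itself showed few differences outside the rule. Of the GABA uptake and breakdown list, 3 of 5 genes were tested and 2 were lower, among them the plasma membrane transporter gene *Slc6a11* (-2.37 ± 0.49, edgeR adjusted p = 0.0345). Of 10 tested glycine supply genes none passed in edgeR's test. *Slc6a5*, which encodes the neuronal glycine transporter GlyT2, had 14, 10 and 3 UMIs in the members and a log2 fold change of 0.32 ± 0.41. *Slc32a1*, which both classes use, stood at -0.81 ± 0.31 (adjusted p = 0.355). Of 11 tested glycine and GABA receptor genes, *Gabrb2* was higher and *Gabra2* lower (-2.42 ± 0.32), and of 17 glutamate receptor genes 4 were lower, among them *Gria3* and *Grm7*. None of those 17 was higher. The list's median log2 fold change was -0.57, beside 0.01 over all genes tested.

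Wiring and identity genes followed. Of 28 tested adhesion and wiring genes 9 were lower and none higher (list median -0.54), among them the guidance receptor genes *Robo1* (-2.22 ± 0.24), *Robo2* and *Unc5c* and the teneurin genes *Tenm1* and *Tenm4*, with *Unc5c* and *Tenm4* lower in 2 of 3 libraries. Genes with loci of at least 100 kb held 26.6%, 23.95% and 16.3% of the members' UMIs by library, against 28.2%, 27.3% and 21.5% in GABAergic cells. The part of gene length in this contrast was not tested. Of 27 tested amacrine transcription factor genes, *Satb1* was higher (0.90 ± 0.20, edgeR adjusted p = 0.0492) and *Meis2* (-1.10 ± 0.15), *Lmo4* (-2.06 ± 0.22) and *Zeb2* (-0.90 ± 0.16) were lower. *Meis2*, a factor of GABAergic amacrine cells, was at 503, 590 and 380 CPM in the members against 1027, 1266 and 922 CPM, so lower in each library. Other kept cells had 787, 769 and 209 CPM of it. *Ebf3* itself did not pass (0.46 ± 0.28, adjusted p = 0.643): it was higher in WT and *Tspan12* KO members and lower in *Ctnnb1* cKO members, at 231 against 405 CPM. The neuron maturation lists had 3 of 14 tested immature genes lower (*Stmn2*, *Gap43*, *Elavl4*) and 2 of 8 mature genes lower (*Snhg11*, *Atp1b1*). Of 15 tested voltage-gated channel genes 3 were lower (*Kcnc2*, *Kcnd2*, *Cacna1a*) and none higher. One of 18 tested synaptic release genes was lower, *Rims1*, an active zone scaffold gene (-1.58 ± 0.23). Of 3 tested neuropeptide and modulator genes, *Cartpt* was lower in each library and *Npy* in 2 of 3. No tested gene of the hypoxia and glycolysis (17), vessel ligand (8), beta-catenin target (3), immediate early (15) or cell death (9) lists passed the edgeR test, which had 861 genes at an unadjusted p under 0.05 over the whole table. The starburst amacrine list had 14, 51 and 16 UMIs in the members, from 5, 5 and 4 of its 7 genes, with *Chat* and *Slc5a7* at 0 in each library.

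The calls depended on single libraries. They came to 59 without the WT, 74 without the *Tspan12* KO and 500 without the *Ctnnb1* cKO library, whose members differed most. Leaving out members and GABAergic cells with at least 20 rod list UMIs per 10000 gave 28 higher and 77 lower genes, of which 88 in all were shared with the main call.

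The members were not of 1 kind. Glycinergic subtype genes, each known from 1 or a few types, were looked for after thinning to 1000 UMIs. A UMI of any of 10 such genes was found in 78.6%, 73.5% and 54.3% of members (44 of 56, 72 of 98 and 19 of 35), against 53.8%, 47.1% and 55.8% of GABAergic cells and 17.1%, 18.8% and 13.3% of rods. Without thinning the members stood at 91.1%, 92.9% and 74.3% and the rods, of lower median depth, in 17 of 41, 40 of 112 and 12 of 30 cells. The members of WT and *Tspan12* KO exceeded GABAergic cells, and those of *Ctnnb1* cKO did not.

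Of single genes at this thinned depth, *Ebf3* was found in 20 of 56, 33 of 98 and 9 of 35 members, or 35.7%, 33.7% and 25.7%. *Prox1*, a homeobox factor of AII and other glycinergic cells, was found in 17, 30 and 8 members, or 30.4%, 30.6% and 22.9%. Both were more frequent than in rods, where *Ebf3* had 0, 1.79 and 3.33% and *Prox1* 0, 3.57 and 0%. In GABAergic cells *Ebf3* was found in 16.8%, 18.3% and 25.6% and *Prox1* in 19.4%, 21.02% and 32.6%, so in *Ctnnb1* cKO the members were level with them for *Ebf3* and lower for *Prox1*. Among members with a *Tfap2a* or *Tfap2b* UMI, *Ebf3* was found in 3 of 27, 8 of 38 and 1 of 7 (11.1%, 21.1% and 14.3%). That was above the GABAergic share only in *Tspan12* KO, and there within the counting interval (9.55 to 37.3%). *Prox1* was found in 8 of 27, 9 of 38 and 2 of 7 of them. Over all members *Dab1* was found in 39.3%, 33.7% and 17.1%, of which the *Ctnnb1* cKO share was level with its GABAergic share of 18.6%. *Car2*, by contrast, was as frequent in rods (6 of 41, 14 of 112 and 3 of 30) as in the members (9 of 56, 13 of 98 and 3 of 35). It did not set the members apart, and the source of its UMIs was not tested. *Gjd2*, the connexin 36 gene of AII gap junctions, was found in 7 WT, 13 *Tspan12* KO and 0 *Ctnnb1* cKO members without thinning, and in 2, 1 and 0 rods. *Slc17a8*, the vesicular glutamate transporter 3 gene that marks a glutamate-releasing amacrine type, had a UMI in 1 WT member and 1 *Tspan12* KO rod without thinning, too few to read. *Neurod6*, a factor gene of a non-GABAergic type, was found in 3, 5 and 0 members after thinning and in no rod. *Ppp1r17* was found in 4, 5 and 0 members after thinning and in no rod.

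*Ebf3* split the members into groups of similar size, and genes of some functional lists differed between them. Without thinning, an *Ebf3* UMI was present in 30 of 56, 58 of 98 and 15 of 35 members by library. Among the other genes 35 were higher and 14 lower in *Ebf3*+ members (3812 tested; with *Ebf3* itself, 0.944% of 3813 were higher and 0.367% lower, 1.31% in all). *Ebf3*+ members were deeper, with a median of 5028 UMIs over all libraries against 4186, and of 6428 against 4465 in WT. A UMI of *Tfap2a* or *Tfap2b* was rarer in *Ebf3*+ members, in 26 of 103 against 46 of 86.

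*Ebf1*, a paralog of *Ebf3*, moved with it. It was at 3326, 1617 and 534 CPM in *Ebf3*+ members and at 410, 281 and 178 CPM in *Ebf3*- members (log2 fold change 2.55 ± 0.25, edgeR adjusted p = 4.79e-05). *Ebf3*+ members were higher in each library. An *Ebf1* UMI was found in 96 of 103 *Ebf3*+ and 19 of 86 *Ebf3*- members, and in 2 of 41, 4 of 112 and 3 of 30 rods. *Lgr5*, a receptor for R-spondins, was at 1587, 422 and 93.7 CPM against 70.7, 69.2 and 9.88 CPM (3.54 ± 0.38, adjusted p = 0.000109). It was detected in 71 of 103 *Ebf3*+ and 18 of 86 *Ebf3*- members, and in 0 of 41, 3 of 112 and 0 of 30 rods. *Lgr5* is listed here with beta-catenin targets, and *Ccnd1*, the only other tested gene of that list, did not pass.

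Other genes higher in *Ebf3*+ members were transcription factors, adhesion molecules and channels. *Nhlh2*, a basic helix-loop-helix factor gene (2.10 ± 0.33, higher in WT and *Tspan12* KO only), *Prdm13*, an amacrine specification factor gene (1.61 ± 0.29), *Tcf4* (0.73 ± 0.17) and *Sox11* (1.42 ± 0.26), a gene of young neurons, passed. So did *Ptprt*, a receptor phosphatase gene of cell adhesion (2.14 ± 0.23, adjusted p = 0.000109 in edgeR's test), and *Dscam*, which keeps processes of like cells apart (1.81 ± 0.26). Channel genes included *Kcnmb4*, a subunit of BK channels (2.34 ± 0.36), and *Cacna2d3*, a calcium channel subunit (2.15 ± 0.33). *Crabp1*, the retinoic acid binding protein gene, was at 2619, 980 and 75.0 CPM against 502, 259 and 59.3 CPM (2.03 ± 0.28). *Ier5*, an early response gene, was at 1016, 469 and 84.3 CPM against 49.5, 60.5 and 49.4 CPM (3.2 ± 0.43), so its gap was wide in WT and *Tspan12* KO and small in *Ctnnb1* cKO. *Lrfn5* (2.68 ± 0.34), *Slc2a13* (2.14 ± 0.44) and *Prmt8* (2.03 ± 0.35) were also among the 10 with the largest differences.

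The *Ebf3*- members carried a different set. *Rbfox1*, a neuronal splicing factor gene, was at 764, 268 and 385 CPM in them and at 31.4, 14.8 and 37.5 CPM in *Ebf3*+ members (-4.09 ± 0.33, edgeR adjusted p = 6.12e-06). *Dlgap1*, a postsynaptic scaffold gene, was at 785, 255 and 237 CPM against 10.5, 19.0 and 46.9 CPM (-4.04 ± 0.44, adjusted p = 0.000109). Both were at higher CPM in *Ebf3*- members of each library, but *Rbfox1* was found in 10 of 26, 13 of 40 and 5 of 20 *Ebf3*- against 3 of 30, 7 of 58 and 4 of 15 *Ebf3*+ members, so in *Ctnnb1* cKO the share of cells with it was level. Few WT members carried *Dlgap1*, and a single cell held a large part of its WT UMIs, as given below. *Sdk1*, a sidekick adhesion gene of synaptic layering (-2.48 ± 0.39), *Cntnap2* (-2.30 ± 0.33), *Csmd3* (-2.48 ± 0.33) and *Lingo2* (-2.68 ± 0.35) followed, and the transcription factor gene *Nfia*, another AII marker, was at 983, 709 and 326 CPM against 99.5, 264 and 225 CPM (-1.73 ± 0.36, adjusted p = 0.0261). *Dab1* was higher in *Ebf3*- members in 2 of 3 libraries and did not pass (-1.30 ± 0.35, adjusted p = 0.11). *Ptgds*, the prostaglandin D synthase gene of pigment and glial cells, was at 14.2, 86.5 and 1096 CPM against 0, 25.3 and 93.7 CPM, so its level was set largely by the *Ctnnb1* cKO library, where the Müller and ciliary genes were also high. *Pip5k1b* (-1.67 ± 0.36) and *Vwc2l* (-1.84 ± 0.35) also passed.

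**Figure D4:**
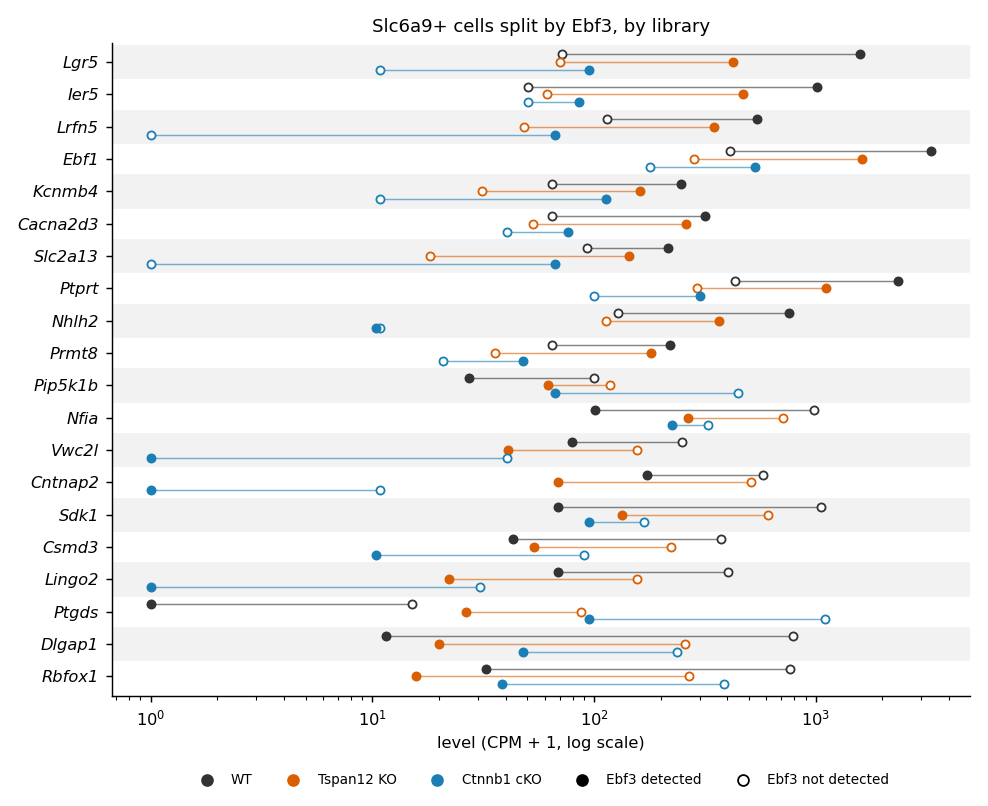
Level (CPM plus 1, log axis) of the 20 genes with the largest differences between members with an *Ebf3* UMI (filled) and without (open), 1 line per library. *Rbfox1* and *Dlgap1* stood between 237 and 785 CPM without *Ebf3* and under 50 CPM with it in each library. A large part of the WT level of *Dlgap1* came from a single cell. *Lgr5* and *Ebf1* were higher with *Ebf3* than without it in each library.

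Of the lists, 3 of 18 tested amacrine transcription factor genes were higher (*Ebf1*, *Tcf4*, *Prdm13*) and 1 was lower (*Nfia*), and 2 of 19 tested wiring genes were higher, among them *Dscam*, and 1 was lower (*Sdk1*). No tested gene of the rod (8) or Müller glia (6) lists passed in either direction by edgeR, which had 329 genes at an unadjusted p under 0.05. The same held for the glutamate receptor (9), synaptic release (13), glycine and GABA receptor (5), glycine supply (5) and immediate early (9) lists. The calls came to 39 without the WT, 15 without the *Tspan12* KO and 186 without the *Ctnnb1* cKO library, and to 94 without cells rich in rod list UMIs, of which 37 were among the 50 main calls.

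*Prox1* made a weaker split. A *Prox1* UMI was found in 37 of 56, 69 of 98 and 18 of 35 members, and in 85 of 103 *Ebf3*+ against 39 of 86 *Ebf3*- members. These counts were not thinned, and *Prox1*+ members were deeper than *Prox1*- members. Their median was 5096 against 4135 UMIs over all libraries and 6562 against 4065 in WT. The part of depth in the shared detection was not tested. Besides *Prox1* itself, 2 genes of 3252 were higher in *Prox1*+ members and 1 was lower (with *Prox1*, 0.0922% of 3253 higher and 0.0307% lower, 0.123% in all). *Ebf1* was at 2694, 1351 and 513 CPM against 307, 589 and 141 CPM (log2 fold change 2.03 ± 0.34, edgeR adjusted p = 0.00723), and *Nhlh2* at 622, 330 and 16.3 CPM against 106, 119 and 0 CPM (2.01 ± 0.40, adjusted p = 0.0468). Both are genes of the *Ebf3* split too. *Ptgds* was lower (-2.99 ± 0.47, adjusted p = 0.00536). *Ebf3* stood at 1.55 ± 0.38 and did not pass (adjusted p = 0.113). Calls came to 2, 1 and 40 without the WT, *Tspan12* KO and *Ctnnb1* cKO library. Without cells rich in rod list UMIs no gene passed edgeR's test of the 999 left, of which 36 had an unadjusted p under 0.05.

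The knockout libraries were then set against WT, since both knockouts act on beta-catenin signalling in retinal vessels. With 1 library per genotype there is no test, and the values describe these libraries. Log2 ratios carry exact conditional binomial intervals at 95%, for counting error only, and both comparisons share the WT library. In bulk sums of few cells, more cells of 1 subtype and more RNA per cell cannot be told apart.

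In *Tspan12* KO members, 236 of 4516 genes (5.23%) were at least 2-fold above WT and 113 (2.5%) at least 2-fold below, 7.73% in all, with a pseudocount of 5 CPM and at least 50 UMIs over both libraries. The 10 largest ratios above 1 were led by photoreceptor genes. *Rcvrn*, the recoverin gene, had 2 UMIs in 1 WT member and 81 UMIs in 21 *Tspan12* KO members (log2 ratio 4.25, 2.36 to 7.32), and *Cnga1*, the rod channel gene, 2 and 54 UMIs. The S-cone opsin gene *Opn1sw* and the cone phosphodiesterase gene *Pde6h* had 3 and 4 UMIs in WT and 69 and 79 in *Tspan12* KO. All 9 counted rod list genes and all 3 counted cone genes were at least 2-fold higher, with list medians of 2.01 and 2.78, beside 0.03 over all counted genes. Of the 10 named genes, which also include *Gngt1*, *Riiad1*, *Cacnb2*, *Samd11* and *Shisa2*, 5 stayed 2-fold higher without cells rich in rod list UMIs. The log2 ratio of *Rcvrn* in GABAergic cells was 0.91 (0.50 to 1.31) and in other kept cells 1.49.

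Immediate early genes summed to 1986 CPM in WT members and 3935 CPM in *Tspan12* KO members, beside 3917 and 3714 CPM in GABAergic cells and 6255 and 5789 CPM in other kept cells, and the part of other cells' RNA in this was not tested. Of 9 counted genes of the list 5 were at least 2-fold higher and none lower (median 1.09). *Fos* stood at 343 CPM in WT and 736 CPM in *Tspan12* KO members, a log2 ratio of 1.10 (0.81 to 1.41), *Egr1* at 283 and 628 CPM and *Btg2* at 274 and 699 CPM. In GABAergic cells the list median was -0.08 and *Fos* stood at -0.36 (-0.44 to -0.27). Without members rich in rod list UMIs the list median was 0.41 and *Fos* stood at 0.52. *Neurod1*, a factor of photoreceptors and some amacrine cells, was at 331 and 831 CPM, and *Gldc*, the glycine decarboxylase gene of the glycine cleavage system, at 42.1 and 167 CPM (1.99, 1.19 to 2.90). Without rod-rich members these stood at 0.08 and 0.85.

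The 10 named genes at lower levels in *Tspan12* KO members began with *Uty* (117 against 24.1 CPM) and *Eif2s3y* (132 against 29.8 CPM), both on the Y chromosome. They were lower in GABAergic cells too, by 1.80 and 2.21 on the log2 scale, beside a male and female share of the pools that was not given. *Xist*, expressed from the inactive X chromosome, was at 394, 1346 and 293 CPM in the members of the 3 libraries and at 397, 1531 and 910 CPM in GABAergic cells. Of the 10, 3 stayed 2-fold lower without cells rich in rod list UMIs. *Dlgap1* (-1.82) and *Rbfox1* (-1.81), the leading genes of *Ebf3*- members, were at 340 and 343 CPM in WT and at 96.5 and 97.9 CPM in *Tspan12* KO. Few WT members carried them, 9 and 13, and 1 of these held 46 of the 113 *Dlgap1* UMIs. In GABAergic cells *Rbfox1* stood at 0.16 (0.06 to 0.27). With the pseudocount and without rod-rich members the values were -0.84 and -0.73. The others were *Pcdh19*, *Nebl*, *Krt24*, *Jakmip2*, *Dnah11* and *Prr16*, with log2 ratios (pseudocount of 5 CPM) from -1.87 to -1.64. *Lgr5* was at 942 CPM in WT and 306 CPM in *Tspan12* KO members (-1.62, -1.88 to -1.37), and at -0.47 without rod-rich members. Of 11 counted glutamate receptor genes 5 were at least 2-fold lower and 1 higher (median -0.97), and that median was -0.07 without rod-rich members and 0.02 in GABAergic cells. Glycine and GABA receptor genes had a median of -0.78, and subtype genes one of -0.55, and without rod-rich members these stood at -0.26 and 0.10, with *Dab1* at 1357 against 604 CPM (-1.17, and -0.32 without rod-rich members).

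In *Ctnnb1* cKO members, 248 of 2306 genes (10.8%) were at least 2-fold above WT and 448 (19.4%) at least 2-fold below, 30.2% in all. Of the 10 largest ratios above 1, 5 were also at least 2-fold higher in other kept cells and 3 in GABAergic cells. *Crhbp* and *Optc* had 0 UMIs in WT members and 73 and 60 UMIs in 8 and 9 *Ctnnb1* cKO members, at least 38.9-fold and 32.0-fold higher with a floor of 3 counts in WT. *Col9a1* was at 24.1 and 375 CPM, and *Dapl1*, an epithelial gene, at 39.1 and 1678 CPM (5.42, 4.63 to 6.35). *Ptgds* (2 and 121 UMIs), *Pcp4* (3 and 84 UMIs), *Rhoj* (3 and 53 UMIs), *Sparc* and *Ifitm3* were also among the 10 largest. Of the 10, 9 stayed 2-fold higher without the cells holding 5 or more UMIs of *Optc*, *Crhbp* and *Col9a1*, though *Dapl1* moved from 5.25 to 2.83 and *Col9a1* from 3.71 to 0.28 (pseudocount of 5 CPM). One cell held 95 of the 349 *Dapl1* UMIs. *Ifitm3*, an interferon-induced gene, was found in 25 of 35 members at 317 CPM against 18.1 CPM, and was also higher in GABAergic (3.85) and other kept cells (3.02).

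Of the 10 named genes at lower levels, *Kcnh7*, a potassium channel gene, had 158 UMIs in 26 WT members and 1 UMI in *Ctnnb1* cKO members (log2 ratio -6.63, -11.94 to -4.13). *Nhlh2* had 163 and 2 UMIs and *Crabp1* 571 and 14 (-4.67, -5.55 to -3.92). *Nrg3* and *Nrg1*, neuregulin genes, had 616 and 12 and 222 and 5 UMIs. *Zfp804a* went from 3121 to 163 CPM (-4.25, -4.79 to -3.76). *Ly6h*, *Cntnap2*, *Gabrb2* and *Cpeb2* were the others. All 10 were at least 2-fold lower in GABAergic cells as well, and 9 of 10 in other kept cells, by less than in the members. *Lgr5*, outside these 10, had 313 UMIs in WT and 11 UMIs in *Ctnnb1* cKO members (-4.15, -5.17 to -3.30).

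By list, glutamate receptor genes had 5 of 7 counted members at least 2-fold lower (median -2.57, beside -0.16 over all counted genes), led by *Grm8* (343 and 14.4 CPM) and *Grik2* (1445 and 91.4 CPM). Glycine and GABA receptor genes had 5 of 5 (median -2.03), among them the gephyrin scaffold gene *Gphn* at 629 and 264 CPM and the glycine receptor gene *Glra2* at 193 and 43.3 CPM. Subtype genes had 4 of 5 (median -1.78). *Ebf3* stood at -1.53 (-2.02 to -1.08) and *Prox1* at -1.81 (-2.35 to -1.30) in the members, and at 0.41 and 0.47 in GABAergic cells. In GABAergic cells the 3 list medians were -1.85, -0.76 and -0.14. Immediate early genes had 4 of 9 at least 2-fold higher (median 0.98), with *Jun* at 114 and 779 CPM and *Egr1* at 283 and 659 CPM. The median of that list was -0.31 in GABAergic cells and 0.31 in other kept cells, beside -0.10 and -0.48 over all counted genes there. Of the hypoxia and glycolysis list 3 of 8 were at least 2-fold higher (median 0.13). *Ldha*, the lactate dehydrogenase A gene, was at 731 and 1712 CPM (1.23, 0.99 to 1.47) and *Ndrg1*, a hypoxia-induced gene, at 199 and 577 CPM (1.54, 1.09 to 1.99), and both were higher in GABAergic cells too. *Ldha* stood at 0.13 without rod-rich members. *Ndrg1* was also higher in *Tspan12* KO members, at 574 CPM (1.53, 1.15 to 1.93). *Vegfa*, the main angiogenic ligand gene, stood at 57.2, 59.6 and 52.9 CPM in WT, *Tspan12* KO and *Ctnnb1* cKO members.

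Longer genes had lower ratios in the *Ctnnb1* cKO members. Genes were grouped by the length of their locus in the GENCODE M21 annotation, which held 99.9% of those counted. The median log2 ratio was 0.13 for 859 genes under 20 kb, -0.09 for 778 genes of 20 to 100 kb and -0.60 for 666 genes of at least 100 kb, of which 239 were at least 2-fold lower and 24 higher. In the shorter groups 96 genes under 20 kb and 113 of 20 to 100 kb were at least 2-fold lower. The same groups stood at -0.04, 0.02 and -0.26 in GABAergic cells and at -0.17, -0.47 and -0.87 in other kept cells. Genes of at least 100 kb held 26.6%, 23.95% and 16.3% of the members' UMIs in WT, *Tspan12* KO and *Ctnnb1* cKO. The median mitochondrial share of the members moved with it, at 2.63%, 1.92% and 0.538%. In *Tspan12* KO members the medians of the length groups lay between -0.10 and 0.07. The part of RNA quality in these ratios was not tested.

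**Figure D5:**
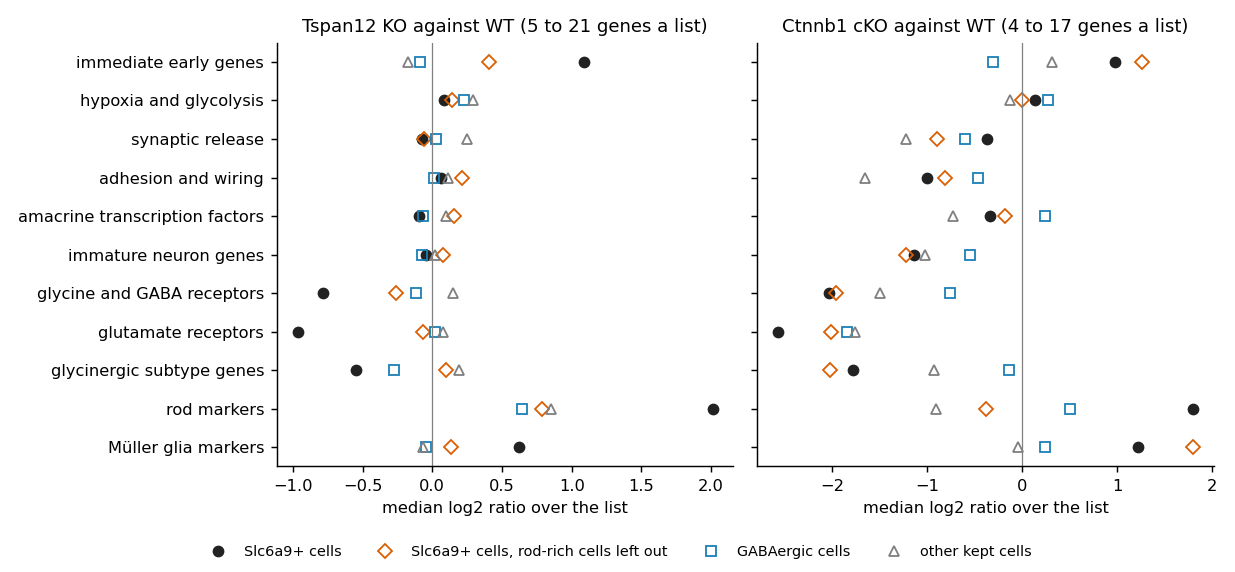
Median log2 ratio (horizontal axis) of each knockout library to WT over the counted genes of each list, in *Slc6a9*+ cells, in those without rod-rich cells, in GABAergic cells and in other kept cells. The immediate early median of *Tspan12* KO members, 1.09, was 0.41 without rod-rich cells, and the receptor and subtype medians of *Ctnnb1* cKO members lay between -2.57 and -1.78 and below those of the other classes.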

How the data were processed

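The deposited counts were raw UMI counts for 33696 genes in each barcode. Cell Ranger was used by the authors (version 8.0.1 in the matrix headers, another in the study's methods). The genome build differed between sources, so no coordinates are given. Barcodes entered with 1000 or more UMIs and no more than 15% of them mitochondrial. The members and gene lists were chosen with earlier results of these data known. Rods were chosen by a marker that is not reported here and had no UMI of *Tfap2a*, *Tfap2b* or *Pax6*. Doublets were scored with Scrublet in scanpy 1.11.5 and kept in the main analysis.

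UMIs were summed per class and library. Class contrasts used edgeR 4.0.16 (R 4.3.3) with TMM, its filter on low counts, a library block (both classes came from the same pool and run, which is where the pairing comes from) and Benjamini-Hochberg adjustment at 0.05, over 3 libraries. The script was tested on simulated counts. DESeq2 1.42.0 was an alternative. Library comparisons used CPM from total UMIs, exact 95% intervals and a floor of 3 counts, with no test. Genes named were list members, plus in each tested contrast the 10 largest differences in each direction among genes past the test with a mean of at least 50 CPM in the higher class, and in each knockout library the 10 largest in each direction. Genes of the rule, mitochondrial genes and unnamed gene models were not ranked. *Tcf4*, *Nrl*, *Prcd*, *Crabp1* and *Ifitm3* among others outside these ranks were described after their values were seen. Python 3.11.15 with numpy 2.4.6, scipy 1.17.1 and pandas 2.3.3 was used.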

Additional observations from a re-analysis of the deposited data

Results flagged for a closer look

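For 11 genes the ratio of a knockout library to WT had an interval on 1 side of 0 in *Slc6a9*+ cells and on the other side in GABAergic cells, with at least a 2-fold difference in the former. The differences between the classes were not tested, and each rests on 1 library per genotype. In *Tspan12* KO against WT, log2 ratios in the members and in GABAergic cells were 1.10 and -0.36 for *Fos*, 1.17 and -0.18 for *Jun*, 1.19 and -0.80 for *Hes5*, 1.39 and -0.25 for *Sox9* and 1.5 and -0.39 for *Tshz2*. They were -1.75 and 0.35 for *Prr16* and -1.81 and 0.16 for *Rbfox1*. In *Ctnnb1* cKO against WT they were -1.53 and 0.41 for *Ebf3*, -1.81 and 0.47 for *Prox1*, -1.23 and 0.37 for *Tcf4* and 4.82 and -2.32 for *Rhoj*, the last with 3 UMIs in WT members.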

How the results depend on the processing

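Numbers of genes past a threshold moved more than the directions of the named genes that a setting still held, and the cause was not tested. For *Slc6a9*+ against GABAergic cells (138 genes), they came to 479 with no filter on low counts and to 243 without cells holding 5 or more UMIs of *Optc*, *Crhbp* and *Col9a1*, and ranged from 59 to 500 when 1 library was left out. For the *Ebf3* split (50) they came to 29 with DESeq2, 154 with no filter, 17 in cells with a *Tfap2a* or *Tfap2b* UMI, 107 when split after thinning to 1000 UMIs, 94 without rod-rich cells and 77 without cells of the *Optc* group, and ranged from 15 to 186 when 1 library was left out. For the *Prox1* split (4) they came to 60, 8, 31, 0 and 1 under no filter, the *Tfap2* condition, thinning, no rod-rich cells and no *Optc* group cells, and ranged from 1 to 40 when 1 library was left out. The fits without the replicate block, which ignore the pairing of classes within a library, gave 28, 1 and 1 genes for the 3 contrasts. Leaving out rod-rich and *Optc* group cells was chosen after seeing the data. Among named genes that a setting still held, *Gabrb2* was the only one to turn direction, to -0.055 with the *Tfap2* condition. Some settings left many named genes out. Thinning held 4 of 20 for *Slc6a9*+ against GABAergic cells. In 84 cases a named gene kept its direction but did not pass, among them all 20 of the *Ebf3* split without the replicate block. Genes past 2-fold in *Tspan12* KO (349) came to 1186 with a minimum of 10 UMIs, 206 with each cell weighted equally and 50 without rod-rich cells, and in *Ctnnb1* cKO (696) to 2478 with a minimum of 10 UMIs and 297 with the *Tfap2* condition. Shares of members under the rule after thinning to 2000 UMIs were 0.264%, 0.318% and 0.149% in WT, *Tspan12* KO and *Ctnnb1* cKO. With the *Tfap2* condition they were 0.288%, 0.328% and 0.0862%. The order of the libraries was kept, but the counting intervals of the main WT and *Tspan12* KO shares overlapped. *Slc6a9* in other kept cells had the same order, at 32.4, 45.5 and 20.8 CPM, and its part in the shares was not tested. The share with a subtype gene was 84.8% and 74.2% in *Tspan12* KO and *Ctnnb1* cKO at 2000 UMIs, and 63.2% and 71.4% with the *Tfap2* condition. With 35 members and 207965 UMIs in *Ctnnb1* cKO, genes of low level could not be compared there.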
